A study of Mus musculus with 14 samples.

Results

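Chromosomes 1 and 11 of the B16F10 genome carry blocks of extra DNA beside long stretches at the ordinary level, and these blocks were followed bin by bin through single cells of tumor-bearing mice. All 576 bins of the 2 chromosomes were taken, 353 of chromosome 1 and 223 of chromosome 11, out of 4880 bins in the whole coverage table. Both chromosomes were picked because the culture differs from leukocytes there, so the culture and naive leukocyte values describe the choice and carry no test. The tests rest on the cells of tumor-injected mice, which the segment map did not use.

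Single cells were amplified by MALBAC, a looping preamplification of the genome of 1 cell, and the deposited coverage gives 648 cells in 14 samples. B16F10 is a melanoma line of C57BL/6J origin, and 9 samples (C1L, C1N, C1R, C2N, C2R, C3R, P1, P2 and P4) came from female C57BL/6J mice of 6 to 8 weeks injected with fluorescently labelled B16F10 cells, with no drug given. They held 43 circulating tumor cells (CTC, 5 samples), 450 cells of a class called DP (9 samples) and 46 white blood cells (WBC, 6 samples), sorted from blood or lung by tumor and host markers. The 5 controls were 22 cells of the B16F10 culture, 21 WBC, 18 CDP, 24 Duplike and 24 PltLike cells, the last 4 labelled as naive female C57BL/6J mice of the same age. The names DP, CDP, Duplike and PltLike are not spelled out, and the labels do not say whether a sample is 1 mouse, so p-values measure the spread between samples. The culture is 1 sample of a passaged line, so the map describes that stock. The control samples named CDP, Duplike and PltLike carried the highest of these gains in 18 of 18 CDP, 24 of 24 PltLike and all 24 Duplike cells, which goes against their label of naive mice. By the profile of the other chromosomes 18, 24 and 22 of them had a tumor genome.

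A copy-number gain is a stretch of a chromosome present in more copies than the rest of the genome, and in solid tumors gains often end at sharp breakpoints that the descendants of a cell inherit. A cell's gains and their breakpoints therefore serve as a lineage mark. Because each cell is scaled to its own median, such a profile shows relative copy number within a cell and no absolute count. Chromosome 1 of the mouse holds, among others, the cluster of T cell costimulatory receptor genes, and chromosome 11 is among the gene-rich mouse chromosomes and holds Trp53, Brca1 and the cytokine cluster of type 2 immunity.

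The highest gain of these chromosomes, called the core, runs from 32.2 to 63.6 Mb of chromosome 1, and the named promoters nearest to each of its edges are shown as landmarks for its ends, which are known only to bins of about 0.5 Mb. They come from RefSeq (GRCm38.p6, the same assembly as mm10), 250 bases before to 50 after the gene start, and capitals mark each CG dinucleotide, the motif searched, which reads the same on both strands. Khdrbs2 (chr1:32172472-32172771, plus strand) lies 36.2 kb outside the start of the core and Rab23 (chr1:33719646-33719945, plus strand) 1511 kb inside it. At the other end Adam23 (chr1:63445641-63445940, plus strand) lies 173 kb inside and Dytn (chr1:63686878-63687177, minus strand) 67.5 kb outside.
Khdrbs2: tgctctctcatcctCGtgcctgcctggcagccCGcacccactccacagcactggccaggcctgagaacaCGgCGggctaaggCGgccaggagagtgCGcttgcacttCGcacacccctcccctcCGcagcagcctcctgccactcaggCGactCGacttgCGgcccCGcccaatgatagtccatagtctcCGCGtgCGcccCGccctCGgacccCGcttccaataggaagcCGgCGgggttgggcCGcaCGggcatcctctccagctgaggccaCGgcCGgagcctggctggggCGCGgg
Rab23: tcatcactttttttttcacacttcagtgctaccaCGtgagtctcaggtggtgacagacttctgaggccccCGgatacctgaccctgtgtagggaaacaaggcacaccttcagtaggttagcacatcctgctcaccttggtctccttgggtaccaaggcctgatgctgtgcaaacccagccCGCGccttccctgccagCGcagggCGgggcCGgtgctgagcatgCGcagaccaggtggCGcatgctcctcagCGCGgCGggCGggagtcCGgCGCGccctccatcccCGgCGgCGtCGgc
Adam23: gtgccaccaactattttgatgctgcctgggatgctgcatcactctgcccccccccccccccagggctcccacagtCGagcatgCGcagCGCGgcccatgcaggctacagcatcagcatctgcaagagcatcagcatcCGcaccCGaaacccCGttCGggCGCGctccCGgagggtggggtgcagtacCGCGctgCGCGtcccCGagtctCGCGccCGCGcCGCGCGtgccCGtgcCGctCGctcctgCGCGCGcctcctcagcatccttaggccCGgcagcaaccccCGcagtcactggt
Dytn: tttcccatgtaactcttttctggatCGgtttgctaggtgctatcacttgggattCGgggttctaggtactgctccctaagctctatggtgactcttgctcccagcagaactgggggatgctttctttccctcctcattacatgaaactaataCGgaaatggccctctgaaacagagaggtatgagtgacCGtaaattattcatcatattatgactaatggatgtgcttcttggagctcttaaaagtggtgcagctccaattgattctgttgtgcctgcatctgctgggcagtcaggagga
These windows hold 26, 20, 31 and 4 CG dinucleotides. Of the 4303 promoter windows of both chromosomes, 18.2%, 29.0%, 11.1% and 72.2% hold at least as many, and the median is 8. The Khdrbs2 gene itself (chr1:32172602-32705224) spans the bin edge at the start of the core, so on this map its promoter lies in the shoulder and most of its length in the core. In a map from CTC minus WBC the core starts at 32.8 Mb, beyond this gene, and ends at 64.7 Mb. On the culture map Adam23 (chr1:63445717-63596111) ends before the other edge and Dytn (chr1:63622851-63686927) begins beyond it. The end at 64.7 Mb would take Dytn into the core. Khdrbs2 encodes an RNA-binding protein, Rab23 a small GTPase that restrains hedgehog signalling, and Adam23 a cell-surface protein of the ADAM family.

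The values are a scaled coverage signal, and each bin was expressed as log2 of the signal against the cell's own autosomal median and the mean of naive WBC, so 0 is the leukocyte level and 0.58 would be 1.5-fold. Values of cells at the lower 3 coverage steps stop at 10, while the 26 cells of the upper 2 steps hold values above 10. Bins that reach 10 in at least 1% of the cells at the lower 3 steps were left out, which kept 529 of the 576 bins, 316 on chromosome 1 and 213 on chromosome 11. The number of reads behind a value is unknown. The median difference between neighbouring bins of a cell was 0.136 to 0.270 log2, and the median of a segment over its bins was used for each cell.

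In the culture, chromosome 1 carried 3 gained segments and chromosome 11 carried 5, and the other 8 segments lay within 0.15 log2 of naive WBC. The gains covered 125.6 Mb, of which 71.8 Mb lay on chromosome 1 and 53.8 Mb on chromosome 11, and no segment was lower. Over all 4376 bins, 16.6% were at least 0.15 log2 higher and 25.6% at least that much lower in culture, from which nothing is read about these chromosomes since they were picked on this contrast.

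The highest segment was the core of the chromosome 1 gain, chr1:32208971-63619375, which stood at 0.59 log2 or 1.504-fold over 52 bins. As a ratio to the cell's own median it was 1.53 ± 0.039 (SD over 22 cells) in culture and 1.01 ± 0.031 in 21 naive WBC. On its centromeric side a shoulder, chr1:20521986-32208970, stood at 0.35 log2 or 1.27-fold over 18 bins, so the gain climbed in steps from 20.5 Mb. On its other side the level dropped at 63.6 Mb to a ramp, chr1:63619376-70167014, which at 0.14 log2 was the segment just outside the limit for a gain. Then 40.5 Mb at −0.0017 log2 followed, up to 110.7 Mb. With segments of at least 5 bins allowed, the ramp ended at 69.1 Mb, stood at 0.21 log2 and was called gained.

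Chromosome 1 had another separate gain, the distal block chr1:110662733-139314729, at 0.31 log2 or 1.24-fold over 45 bins. The rest of the chromosome, 56.2 Mb from 139.3 Mb to its end, stood at −0.019 log2.

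Chromosome 11 alternated between gained and unchanged stretches along its whole length. Block 1 (chr11:3628025-9557626) stood at 0.35 log2, block 2 (chr11:48994664-69443168) at 0.34, block 3 (chr11:79544820-93806396) at 0.32, block 4 (chr11:98986709-106849012) at 0.27 and block 5 (chr11:116773911-122082543) at 0.30. These are 1.20- to 1.27-fold, none reached the level of the core, and block 4 was the lowest of the gained segments. Between them lay 38.9 Mb at 0.022 log2 (from 10.1 to 49.0 Mb), 10.1 Mb at 0.049, 5.2 Mb at 0.016 and 9.9 Mb at 0.073.

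**Figure D1:**
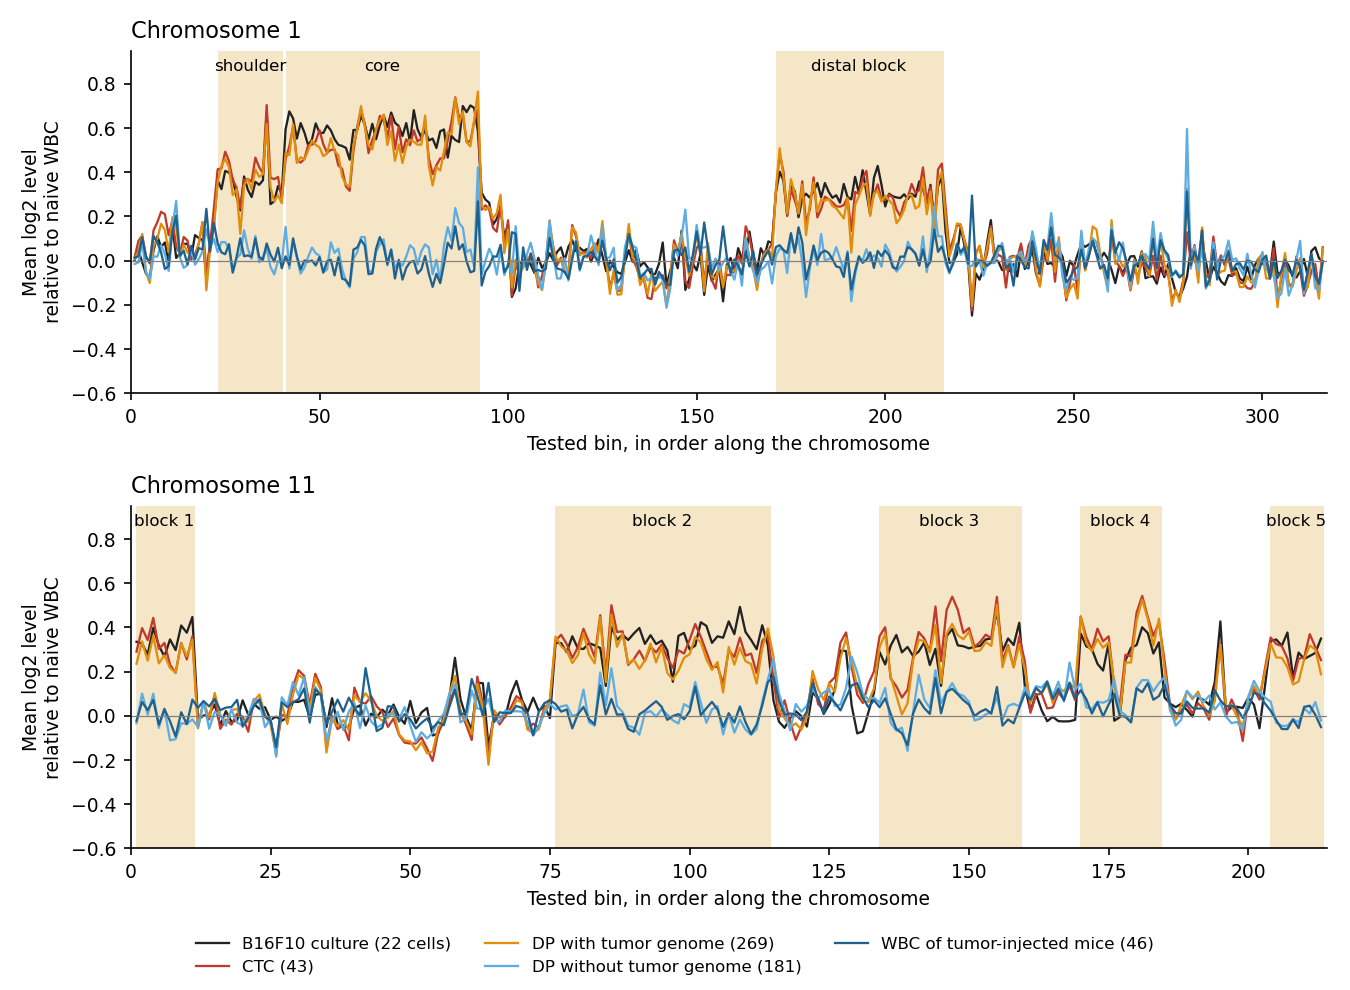
Mean level of each tested bin (y axis, log2 to the cell's own median and naive WBC) in order along chromosome 1 and chromosome 11 (x axis, bin number), 1 line for each cell class, with the gained segments shaded. The culture, CTC and DP cells with a tumor genome run together, highest in the core of chromosome 1, while WBC and DP cells without a tumor genome stay near 0 through the shaded segments.

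Every gained segment was higher in the CTC of the mice than in the WBC of the same samples, and the long unchanged segments were not. The core was at 0.50 log2 in the CTC of C1L, 0.49 in C1N, 0.49 in C1R, 0.60 in C2R and 0.59 in C3R. The WBC of the same samples lay at 0.04, 0.01, 0.00, 0.01 and 0.01, so the sample means of the groups did not overlap. The difference was 0.52 ± 0.061 (SD, n = 5 samples), higher in 5 of 5, with p = 0.0625 in the exact two-sided sign-flip permutation test, the smallest p that 5 samples allow (0.1 after Benjamini-Hochberg over 16 segments).

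The flanking shoulder differed by 0.36 ± 0.082 and the distal block by 0.28 ± 0.057, in 5 of 5 samples each. On chromosome 11 the differences were 0.33 ± 0.075, 0.29 ± 0.056, 0.32 ± 0.036, 0.30 ± 0.054 and 0.31 ± 0.060 for blocks 1 to 5, again in 5 of 5 samples and at the same smallest p. The blocks of chromosome 11 thus lay within 0.04 log2 of each other, close to the distal block of chromosome 1. Averaged over the gained segments the difference was 0.40 ± 0.056 on chromosome 1 and 0.31 ± 0.045 on chromosome 11. The unchanged segments averaged 0.0073 ± 0.040 and 0.0022 ± 0.043.

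The ramp beside the core, called unchanged in culture, was also higher in CTC in 5 of 5 samples, by 0.18 ± 0.053 log2. So was the stretch of chromosome 11 between blocks 2 and 3, by 0.074 ± 0.048.

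**Figure D2:**
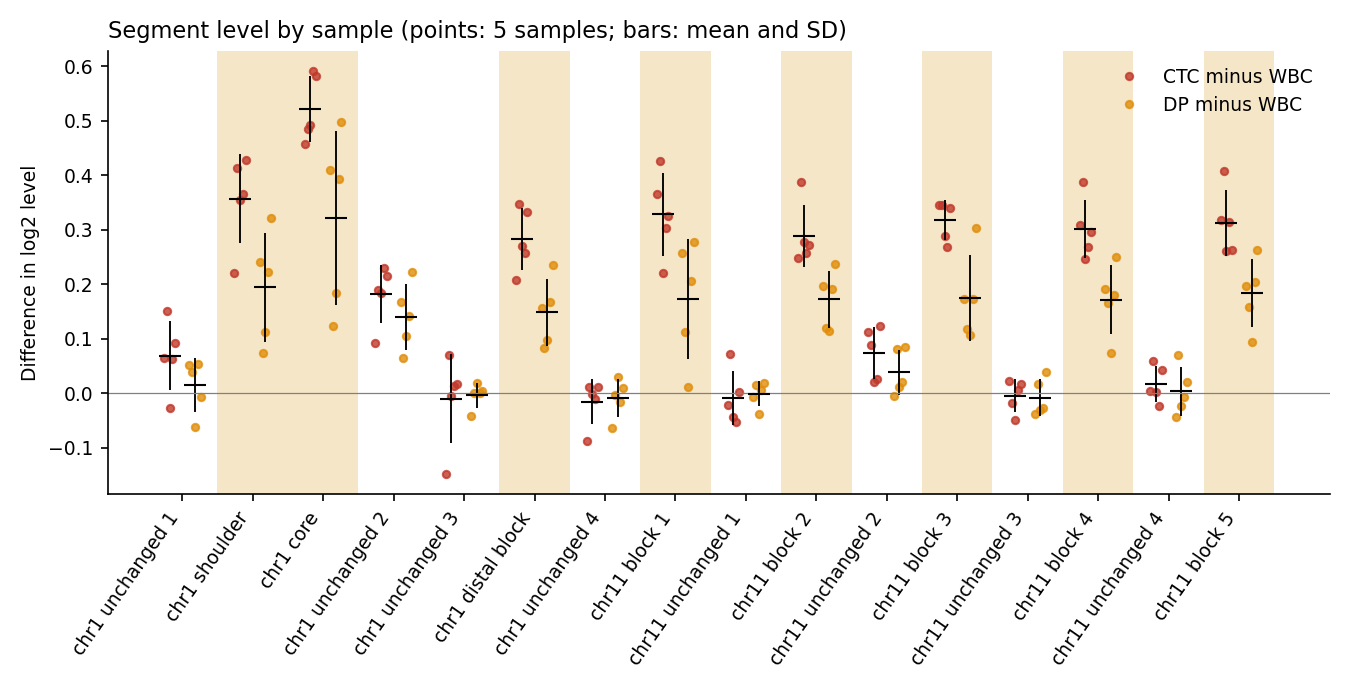
Difference in log2 level (y axis) of CTC minus WBC and of DP minus WBC for each of the 16 segments (x axis), 1 point for each of 5 samples with the mean and SD as bars and the gained segments shaded. The core is highest, at 0.52 for CTC and 0.32 for DP, and every point of the gained segments lies above 0.

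Within the CTC the segments were set against each other in the same samples. The core exceeded the distal block by 0.24 ± 0.070 log2 and the shoulder by 0.17 ± 0.067, and the shoulder exceeded the distal block by 0.074 ± 0.037, each in 5 of 5 samples (exact sign-flip p = 0.0625, 0.146 adjusted over 7 comparisons). The same order, core over shoulder over distal block, stood in the culture that set the map. The gained segments of chromosome 11 and the distal block differed by 0.025 ± 0.058 (exact p = 0.5), and their order was not resolved at this number of samples. Set beside chromosome 6, which stood at 0.56 ± 0.030 log2 over the WBC, the core differed by −0.043 ± 0.064, with 2 of 5 samples above 0 (exact p = 0.25).

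Bin by bin, limma called 212 of the 216 gained bins higher in CTC than in WBC and 0 lower, where 20.1% of all 4376 bins were called higher and 29.7% lower (Benjamini-Hochberg, adjusted p at most 0.05). All 18 bins of the shoulder and all 52 of the core were called, as were 43 of 45 in the distal block. On chromosome 11 all bins of blocks 1, 2, 3 and 5 (11, 39, 26 and 10) passed and 13 of 15 in block 4. Of 313 bins in unchanged segments, 27 were called higher and 25 lower, and the 10 bins of the ramp gave 5 of the former and 2 of the latter. The gained counts are far above the background, and the unchanged ones (27 and 25 of 313) are below it in both directions. Because the segments were labelled on the culture of the injected line, these counts show only that its map recurs in the CTC. Counting either direction, 49.8% of all bins were called.

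The DP class lay between the other classes, and it held cells with and without the tumor profile. A cell was said to have a tumor genome when its profile over the autosomes other than 1 and 11 scored above 0.5, on a scale where naive WBC average 0 and culture cells 1. By this score 269 of 450 DP cells, 43 of 43 CTC and 0 of 46 WBC had a tumor genome. Such DP cells numbered 30 of 40 in C1L, 10 of 36 in C1N, 22 of 57 in C1R, 0 of 15 in C2N, 45 of 64 in C2R, 73 of 81 in C3R, 45 of 93 in P1, 32 of 35 in P2 and 12 of 29 in P4.

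Over all DP cells the core stood at 0.45 log2 in C1L, 0.13 in C1N, 0.19 in C1R, 0.40 in C2R and 0.51 in C3R. The samples with few tumor genomes among their DP cells were the low ones. Against the WBC of the same samples the core differed by 0.32 ± 0.16 log2, the shoulder by 0.19 ± 0.10 and the distal block by 0.15 ± 0.061, in 5 of 5 samples (exact sign-flip p = 0.0625, adjusted 0.111). Blocks 1 to 5 of chromosome 11 differed by 0.17 ± 0.11, 0.17 ± 0.053, 0.17 ± 0.078, 0.17 ± 0.063 and 0.18 ± 0.063. limma called 194 of 216 gained bins higher, where 14.8% of all bins were called higher, with 52 of 52 in the core and 34 of 45 in the distal block. Without C1L 110 gained bins passed and without C2R 105.

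Restricted to cells with a tumor genome, DP and CTC had close levels, slightly lower on average in DP. The core of these DP cells stood at 0.58 log2 in C1L, 0.40 in C1N, 0.46 in C1R, 0.55 in C2R and 0.55 in C3R, which overlaps the CTC. The core differed by −0.027 ± 0.065, the gained segments of chromosome 1 by −0.031 ± 0.055 (between −0.090 and 0.056 in single samples, exact p = 0.3125) and those of chromosome 11 by −0.022 ± 0.025 (exact p = 0.125). Blocks 1 and 3 of chromosome 11 were lower in 5 of 5 samples, by −0.023 and −0.032 (exact p = 0.0625, adjusted 0.5). limma called 0 of 529 bins of both chromosomes, where 3.34% of all bins were called (3.15% higher), and 26 of the 216 gained bins had an unadjusted p under 0.05. The difference was above 0 in only 35 of the 216 gained bins. All 43 CTC were at the coverage step of the culture, but only 219 of the 269 DP cells were.

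Tumor-genome DP cells of lung and blood could be compared in C2R (6 and 39 cells) and P1 (34 and 11 cells). The gained segments of chromosome 1 were higher in lung by 0.024 and 0.030 log2, and those of chromosome 11 differed by −0.014 and 0.030. With 2 samples the smallest exact p is 0.5, so no difference by tissue could be shown.

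Cells also differ in the overall level of their deposited coverage, which gathers near 5 steps, and most tumor-genome cells sat at the step of the culture. The steps had medians of 1.82, 3.72, 5.64, 7.75 and 9.59 signal units. Naive WBC are at the first step and all culture cells at the second, and the second held 219 tumor-genome DP cells. Another 54 DP cells in 8 samples were at the steps above it, 5 of them without a tumor genome by the score. What the steps mean in copies is not stated in the sources used here.

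The gains were shallower in the DP cells above the culture's step. The core stood at 0.34 against 0.59 log2 in C1L, 0.31 against 0.44 in C1N, 0.46 against 0.46 in C1R, 0.47 against 0.57 in C2R, 0.40 against 0.57 in C3R, 0.41 against 0.54 in P1, 0.48 against 0.56 in P2 and 0.42 against 0.48 in P4. Thus 7 of 8 samples were lower, by −0.11 ± 0.077 (exact sign-flip p = 0.0156). The shoulder differed by −0.070 ± 0.030, the distal block by −0.064 ± 0.028, and blocks 1 to 5 by −0.091, −0.088, −0.081, −0.069 and −0.089, with exact p between 0.0078 and 0.0156 (0.025 to 0.031 adjusted over 16 segments).

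Averaged, the gains of chromosome 1 stood at 0.319 against 0.411 log2 and those of chromosome 11 at 0.224 against 0.309, while the unchanged segments differed by 0.0035 and −0.0013. Chromosome 6 showed the same, with −0.16 log2. With tumor-genome cells only the differences were −0.083 and −0.078 in 7 samples. The 59 tumor-genome cells at the third step were 29 DP cells and, for the rest, CDP and Duplike controls. Of their gained values 0.604% sat at the limit of 10, and 2.15% in the core, against 0 at the second step. It was also 0 at the upper steps, whose cells exceed 10, and the part of this in the difference was not tested. The 16 DP cells at the fifth step had a core at 0.512 log2. All 8 gains were carried by 37.5% of them and block 5 by 50%, against 65.3% and 79.0% of DP cells at the culture's step.

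**Figure D3:**
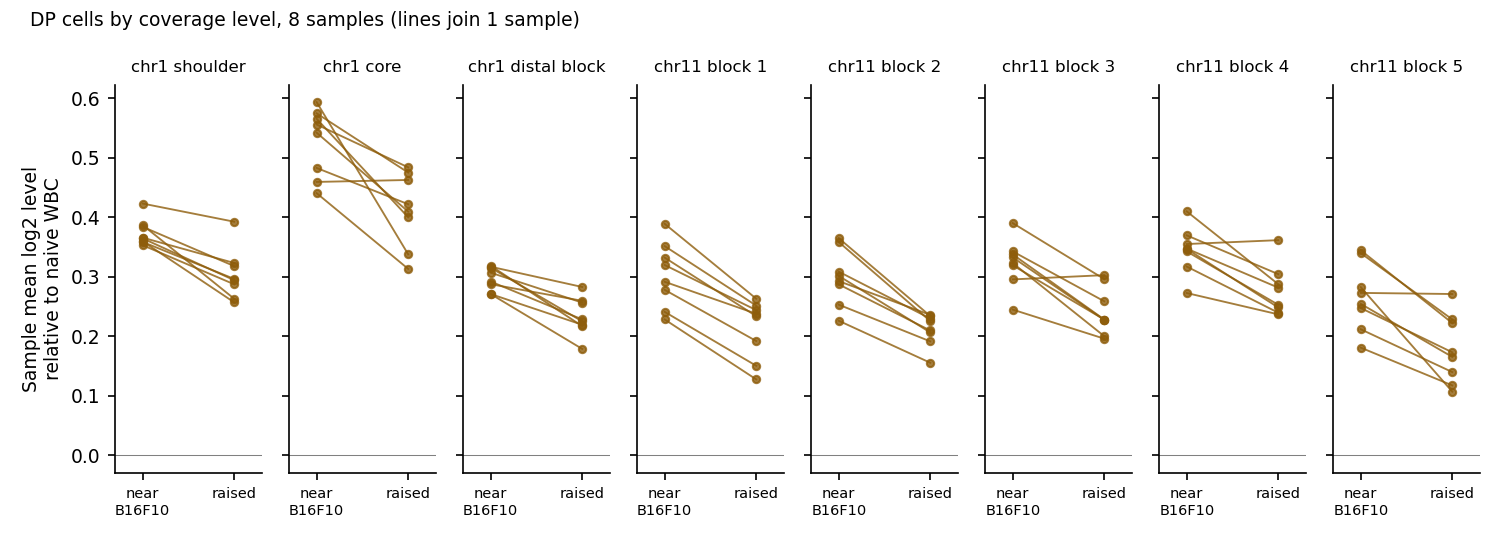
Mean segment level (y axis, log2) of DP cells at the culture's coverage step and above it, joined within each of the 8 samples, with 1 panel for each gained segment. In the core 7 of 8 samples are lower above the culture's step, by 0.11 on average.

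The share of cells carrying each gain was counted with a limit of 0.2 log2, which is 1.15-fold. The core was carried by 22 of 22 culture cells, 43 of 43 CTC and 267 of 269 tumor-genome DP cells (99.3%). It was carried by 0 of 21 naive WBC and 0 of 46 WBC of tumor-injected mice, which allow up to 14.3% and 6.52%. Such upper limits for a count of 0 are 3 divided by the number of cells. The core also stood furthest above the carrier limit of 0.2 log2, at 0.59 log2 in culture against 0.30 for block 5 of chromosome 11. The shares therefore do not measure how uniform the level of a gain was.

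Among CTC the shoulder was carried by 97.7%, the distal block by 93.0%, blocks 1, 2 and 3 each by 93.0%, block 4 by 100% and block 5 by 86.0%. Among tumor-genome DP cells the shares were 94.8% for the shoulder, 88.5% for the distal block and 83.6%, 85.9%, 88.8%, 92.6% and 71.7% for blocks 1 to 5. Block 5 was the least often carried in both classes. All 8 gains together were found in 17 of 22 culture cells (77.3%, exact Clopper-Pearson 95% interval 54.6 to 92.2), 33 of 43 CTC (76.7%, 61.4 to 88.2) and 154 of 269 tumor-genome DP cells (57.2%, 51.1 to 63.2). The intervals cover counting of cells only.

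At the culture's coverage step the DP share was 143 of 219 (65.3%), at the third step 13.8%, at the fourth 0 and at the fifth 37.5%. Of the 262 CTC and DP cells with a tumor genome at the culture's step, 176 carried all 8 gains, 47 carried 7, 16 carried 6, 6 carried 5, 9 carried 4, 6 carried 3 and 2 carried 2. The cells with all 8 had a median noise of 0.169 and the others 0.179. Missing gains were thus mostly 1 per cell, and noise was slightly higher where gains were missed.

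By sample, over cells at the culture's step, all 8 gains were carried by 33.3% of CTC and 61.5% of DP in C1L, by 100% of blood CTC and 83.3% of DP in C1N, and by 81.8% of blood CTC, 75% of lung CTC and 80% of DP in C1R. In C2R the shares were 75% for blood CTC, 80% for lung CTC, 80% for blood DP and 75% for lung DP. C3R had 60% of CTC and 68.7% of DP. Among samples with DP cells only, P1 had 33.3% in blood and 37.0% in lung, P2 76% and P4 50%. Blood and lung lay close together within C1R, C2R and P1, and the samples differed more than the tissues, in groups as small as 3 cells.

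Averaged over segments, the share of carriers was higher in CTC than in WBC by 93.5 ± 9.36 percentage points on chromosome 1 and 93.1 ± 4.22 on chromosome 11. For all DP cells it was higher by 56.1 ± 24.1 and 54.7 ± 23.3 points, each in 5 of 5 samples (exact sign-flip p = 0.0625).

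DP cells without a tumor genome mostly lacked the gains: 159 of 181 carried none, as did 44 of 46 WBC of tumor-injected mice. Single gains were carried by up to 6.6% of them, block 4 most often, and all 8 by 0 of 181, which allows up to 1.66%. Of the 176 at the first step, 13 carried 1 gain, 2 carried 2 and 2 carried 3. The other 5, at the fourth step with scores of 0.32 to 0.50, carried 2 to 5 gains each. A blood DP cell of C1L at the first step scored 0.91 and carried all 8 gains, with the core at 0.56 log2.

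**Figure D4:**
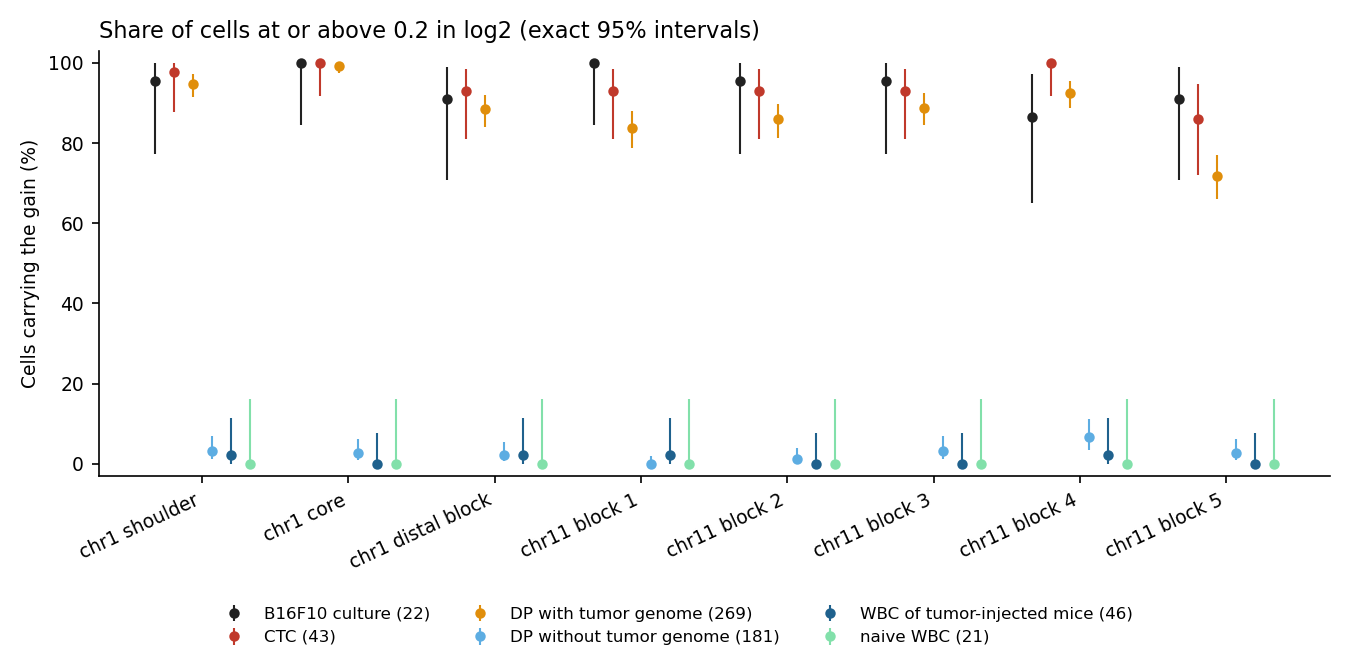
Share of cells carrying each gained segment (y axis, percent of cells with a segment level of at least 0.2 log2; x axis, segment) by cell class, with exact 95% intervals. CTC and tumor-genome DP cells carry the core in 100% and 99.3%, and block 5 of chromosome 11 is lowest in both.

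The 2 tumor-genome DP cells without the core still carried the distal block. A blood cell of C2R had the core at 0.052 log2 and a lung cell of P2 at 0.10, with the distal block at 0.38 and 0.39 and the shoulder at 0.13 and 0.14. In both the next unchanged stretch (70.2 to 110.7 Mb) was low, at −0.33 and −0.32 log2. Shoulders and stretches as low were found in other cells. The ramp of the C2R cell was low too, at −0.31 log2 against 0.22 in the other C2R DP cells at the culture's step.

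Most breakpoints fell at or near the same bins in cells of the mice as in the culture. For each cell the single best change point in a window of 12 bins on either side of a boundary was found. Over 14 boundaries it lay within 2 bins of the culture's position in 89.0% of culture cells, 73.3% of CTC and 71.6% of tumor-genome DP cells at the culture's step, against 21.1% of naive WBC, the reference for every value. In WBC of the tumor-injected mice it was 28.9%, and in DP cells without a tumor genome 31.0%. In mean profiles by sample it lay within 2 bins in 58 of 70 for CTC and in 96 of 112 for tumor-genome DP, with the step in the same direction in all 70 and all 112.

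The largest step was at the end of the core at 63.6 Mb, found at the identical bin edge in 5 of 5 CTC and 8 of 8 DP profiles. Its size was −0.51 to −0.41 log2 in CTC. By cell this edge was within 2 bins in 88.4% of CTC and 84.0% of DP cells. For the start of block 2 these shares were 93.0% and 94.5%. A map from CTC minus WBC ends the core at 64.7 Mb instead. The start of block 2 at 49.0 Mb and the end of block 1 at 10.1 Mb on chromosome 11 were also at the identical edge in all 13 profiles. The start of the distal block at 110.7 Mb was so in 5 of 5 and 7 of 8. Weak boundaries were the start of block 3 at 79.5 Mb and the end of the ramp at 70.2 Mb. The former was within 2 bins in 1 of 5 and 2 of 8 profiles. The latter was within 2 bins in 3 of 5 and 5 of 8. It was at the identical edge in 0 of 5 and 0 of 8. By cell the ramp end was within 2 bins in 41.9% of CTC and 32.9% of DP cells, against 43.5% of WBC of tumor-injected mice, and the start of block 3 in 44.2% and 44.7%, against 30.4%. The inner step from shoulder to core at 32.2 Mb was within 2 bins in 2 of 5 CTC and 6 of 8 DP profiles, with a step as low as 0.006 log2 in 1 CTC profile.

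A subset of cells had a lower core and little of that inner step. The subset was drawn after the values were seen, as tumor-genome cells at the culture's step with the core under 0.45 log2 and less than 0.1 above the shoulder, and its levels are given as a description. It held 35 of 317 cells (9 CTC, 25 DP and 1 Duplike), of which 21 were in C1N and C1R. The highest core inside the limit was 0.447 and the lowest outside 0.451, while the step reached 0.077 inside and began at 0.102 outside, and 14 cells met the core limit only and 13 the step limit only. The 2 cells without the core are among the 35.

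In C1N 3 of 6 CTC and 4 of 6 DP cells were in the subset, and in C1R 6 of 15 CTC and 8 of 15 DP cells. All 6 of the CTC in C1R were among the 11 from blood, and 0 of the 4 from lung were. In the other samples it held 0 of 14 CTC and 1 of 34 DP in C2R, 0 of 5 and 3 of 67 in C3R, 0 of 29 cells in C1L, 4 of 36 DP in P1, 2 of 25 in P2 and 3 of 10 in P4. The culture had 0 of 22, which allows up to 13.6%, PltLike 0 of 24 and Duplike 1 of 9. In C1N and C1R the subset held CTC and DP cells alike, and these 2 samples gave most of it.

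In C1R blood, the 14 cells of the subset had the core at 0.36 log2 against 0.59 in the other 12. Their shoulder stood at 0.41 against 0.43 and their ramp at 0.019 against 0.19. In C1N blood the 7 cells had the core at 0.39 against 0.57 in 4 others, and the ramp at 0.042 against 0.22. The lower core and its small step above the shoulder restate how the cells were picked, and the ramp was not used for the choice. The noise was 0.169 in the subset and 0.174 in the others, and the subset's tumor score had a median of 0.968, beside scores down to 0.758.

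Outside both chromosomes, the C1R subset was lower over the first 92.9 Mb of chromosome 10, by −0.35 log2 over 153 bins, the largest of 31 genome segments compared between the same cells. This part of chromosome 10 stood at −0.2 log2 or lower in 26 of the 35 cells (74.3%) and in 4 of the 282 others (1.42%). It was chosen after its values were seen and in C1R, and it is given as a description. The 26 include all 14 subset cells of C1R, at −0.34 to −0.24, which served for the choice. In the other samples the subset's median was −0.25 in C1N (7 cells), −0.18 in P1 (4), −0.26 in P4 (3) and −0.29 in Duplike (1). It was 0.047 in C3R (3 cells), 0.036 in P2 (2) and 0.245 in C2R (1). Culture cells lay between −0.023 and 0.17 there and naive WBC between −0.10 and 0.060.

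**Figure D5:**
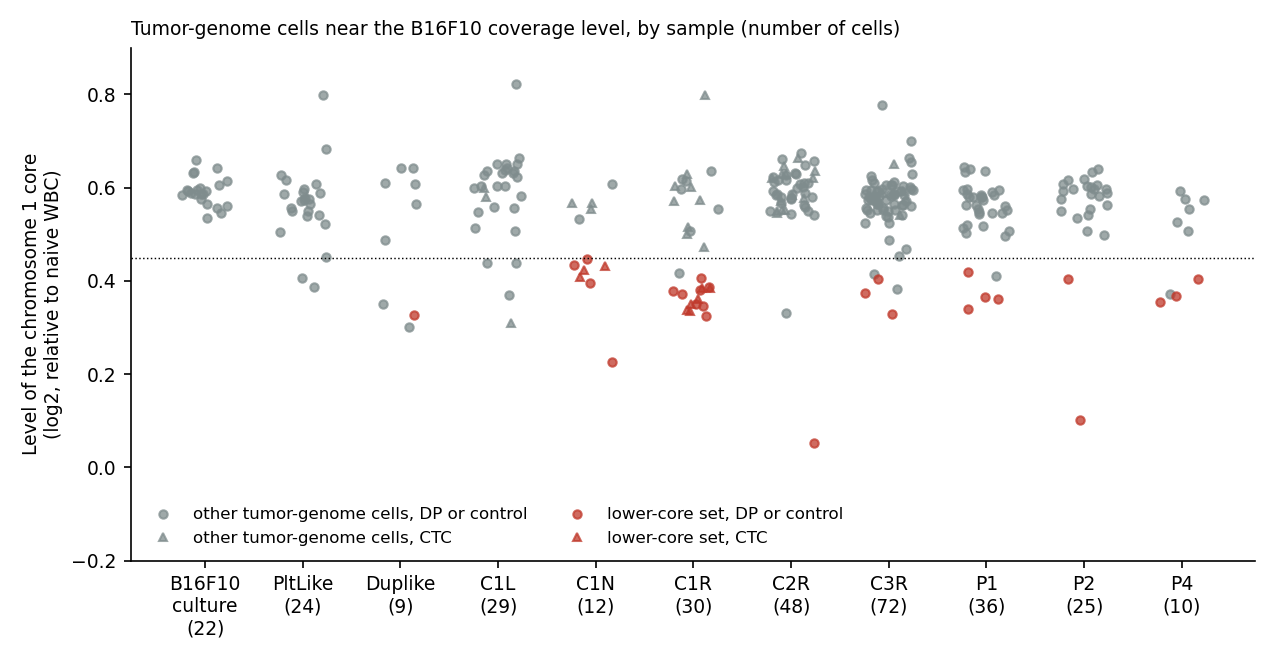
Core level (y axis, log2) of each tumor-genome cell at the culture's coverage step, by sample (x axis), with CTC as triangles, other cells as circles, the lower-core cells in red and the limit of 0.45 dotted. The 35 red cells lie below the limit, and 21 of them are in C1N and C1R.

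Long unchanged segments were also altered in a few cells. Of the 262 CTC and DP cells with a tumor genome at the culture's step, 14 (5.34%) were at −0.2 log2 or lower over 70.2 to 110.7 Mb of chromosome 1, 9 over 139.3 Mb to its end, and 8 over 10.1 to 49.0 Mb of chromosome 11. Higher levels of at least 0.2 were seen in 2, 3 and 5 cells. The cells low on chromosome 1 came from 7 samples, and 7 of them were low over both stretches. The culture had 0, 0 and 1 of 22 such low cells, and no WBC had any. DP cells without a tumor genome had 1, 1 and 3 of 181, which on chromosome 11 is 1.66% against 3.05% of the tumor-genome cells.

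The gained segments differ in gene content. On chromosome 1 they hold 389 protein-coding genes of the RefSeq table, 5.42 per Mb, against 792 (6.66 per Mb) in the unchanged segments, and the core holds 196. On chromosome 11 they hold 893 genes, 16.6 per Mb, against 697 (10.9 per Mb), with 30.1 per Mb in block 4. The smaller total length of the chromosome 11 gains thus covers more genes than the chromosome 1 gains.

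A list of 53 genes was placed on the map by the bin over each gene's midpoint, and 28 fell in gained segments (21 bins) and 25 in unchanged ones. These are DNA levels of the bin around a gene and say nothing of its expression. In CTC minus WBC, limma called 27 of the 28 higher and 0 lower, with a median of 0.34 log2, and 6 of the 25 higher and 2 lower, with a median of 0.0020. Against the 20.1% of all bins called higher, the genes follow their segments.

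Of the transcription factor and signalling genes of chromosome 1, 5 of 5 in gains were higher, and in unchanged segments 4 of 7 were higher and 2 lower. Bmpr2, a receptor for bone morphogenetic proteins, was higher by 0.55 (SE 0.049, adjusted p = 1.1e-07) in the core and Kdm5b, a histone demethylase, with 0.28 (SE 0.043, adjusted p = 3.5e-05) in the distal block.

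On the culture map Creb1, a cyclic AMP-responsive factor, lies beyond the end of the core in the ramp. It was at 0.29 log2 (SE 0.041, adjusted p = 1.5e-05 in limma). The map from CTC minus WBC puts its bin inside the core. Idh1 and Erbb4, also in the ramp, were higher by 0.25 and 0.20, while Ikzf2 near its end was lower, by −0.28. In the Ikzf2 bin the WBC of C2R stood at 0.68 log2 and those of the other samples between −0.19 and 0.14. The genes called higher in the ramp were thus those nearer the core. Atf3, a stress-response factor near the end of the chromosome, was at −0.0019 (adjusted p = 0.98).

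Of the apoptosis genes Casp8, the initiator caspase of death receptors, and Cflar, its inhibitor, share a core bin at 0.46 log2 (SE 0.042, adjusted p = 1.7e-07). Of the 2 outside gains, Bcl2 was higher by 0.14 and Fasl stood at 0.00079 (adjusted p = 0.99). Of the leukocyte genes of chromosome 1, 5 of 6 in gains were higher. The costimulatory receptor genes Ctla4 and Cd28 share 1 bin of the core (chr1:60435588-60972057), at 0.67, 0.54, 0.58, 0.75 and 0.78 log2 in the CTC of C1L, C1N, C1R, C2R and C3R. The WBC lay at 0.09, 0.07, −0.00049, 0.13 and 0.14 there, so the CTC mean of every sample was above every WBC mean. The difference was 0.58 (SE 0.041, adjusted p = 9.6e-09 in limma), and their neighbour Icos was at 0.51 (SE 0.045, adjusted p = 1.1e-07). The sixth, Ptprc, which encodes CD45, was at −0.0019 in the distal block. In its bin the WBC of C1N stood at 0.72 log2 and the other WBC between −0.09 and 0.23, with CTC between 0.05 and 0.33.

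On chromosome 11, 6 of 6 growth signalling genes in gains were higher and 1 of 6 outside them, Nf1, by 0.14 log2 in the last bin before block 3. Flt4, a receptor for lymphatic growth factors, was at 0.38 (SE 0.041, adjusted p = 1.0e-06) in block 2. Stat3, Stat5a and Stat5b, adjacent cytokine signal transducers, share a bin of block 4 at 0.33 (SE 0.041, adjusted p = 3.8e-06). Egfr, Erbb2, Grb2, Prkca and Rel lay in unchanged stretches and did not pass.

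The tumor suppressor and cell cycle genes in gains were higher in 3 of 3 cases and in 0 of 3 outside. Birc5, which encodes the mitotic protein survivin, was at 0.40 log2 in block 5 (SE 0.040, adjusted p = 5.0e-07), and Brca1, a DNA repair gene, at 0.36 (SE 0.040, adjusted p = 1.5e-06) in block 4. Top2a, topoisomerase II alpha, sits in the first bin of block 4 at 0.35 (SE 0.045, adjusted p = 6.1e-06), and Rara, the retinoic acid receptor alpha gene in the bin before it, was at 0.0020 (adjusted p = 0.97). Trp53, the p53 gene, lies in the first bin after block 2 (chr11:69443169-69963047) and was at 0.00019 (SE 0.039, adjusted p = 0.997). In that bin CTC stood at 0.28, 0.11, 0.14, 0.11 and 0.38 log2 and WBC at 0.24, 0.11, 0.18, 0.15 and 0.34 for C1L, C1N, C1R, C2R and C3R. In the mean profiles against naive WBC, the change point beside Trp53 lay 1 to 3 bins further on in 3 of 5 CTC and 1 bin further on in 6 of 8 DP profiles, and the WBC were raised in this bin too. The edge between Rara and Top2a was at the identical bin in 5 of 5 CTC and 7 of 8 DP profiles.

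Of the other transcription factors of chromosome 11, 1 of 1 in a gain was higher and 0 of 5 outside. Of the leukocyte genes 5 of 5 in gains were higher and 0 of 1 outside. Csf2, the gene of the growth factor GM-CSF, was at 0.40 (SE 0.042, adjusted p = 7.6e-07), and Il4 and Il13, cytokines of type 2 immunity, share a bin at 0.34 (SE 0.046, adjusted p = 1.0e-05), all in block 2. In DP minus WBC 23 of the 28 genes in gains and 3 of the 25 others (Creb1, Erbb4 and Idh1) were higher, beside 14.8% of all bins. The 5 in gains that did not pass were Mdm4, Cxcr4, Ptprc, Irf1 and Il5. In tumor-genome DP minus CTC 0 of the 53 passed, with 26 gained bins at an unadjusted p under 0.05 as given above.

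The control samples outside culture and naive WBC had no replicate and are described by their levels. PltLike cells, all at the culture's coverage step, had the core at 0.565 log2, and Duplike cells at that step at 0.504. CDP cells, all at the third step, had the core at 0.464, the distal block at 0.219 and the blocks of chromosome 11 between 0.16 and 0.22. Duplike cells above the culture's step had the core at 0.424. All 8 gains were carried by 41.7% of PltLike cells, 55.6% of Duplike cells at the culture's step, 0 of those above it and 11.1% of CDP cells.

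A stretch of chromosome 11 was higher in CTC and WBC of the mice alike than in culture and naive WBC. The gene-rich unchanged segment chr11:93806397-98986708, with 27.1 protein-coding genes per Mb, stood at 0.15, 0.09, 0.12, 0.10 and 0.11 log2 in the WBC of C1L, C1N, C1R, C2R and C3R and at 0.17, 0.08, 0.07, 0.11 and 0.13 in their CTC. Naive WBC were at 0.007, culture cells at 0.008 and PltLike cells at 0.165. Over the 213 bins of chromosome 11, WBC of tumor-injected mice minus naive WBC correlated with gene density at r = 0.29, and at r = 0.055 over the 316 bins of chromosome 1, as a description across bins that share libraries. Within samples, CTC minus WBC lay between −0.05 and 0.02 over chr11:93806397-98986708.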

How the data were processed

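The deposited table gives a scaled normalized coverage signal per bin and cell that the authors computed. Per the submitters' processing notes the build was mm10 and the tools of the series were BWA, SAMtools, Picard and Trim Galore, with HISAT2 and featureCounts named too, and the binning settings are not given in the sources used here. Cell class, tissue and batch came from the deposited cell table, and the batch label, which is the sample, is what pairs classes. Bins at 10 or more in at least 1% of the 622 cells of the lower 3 coverage steps were left out, since the ceiling hides differences there, and 4376 bins were kept. The log2 of signal plus a pseudocount of 0.1 was set against the cell's autosomal median and the naive WBC mean. Segments come from a least squares fit of culture minus naive WBC with at least 10 bins a segment, neighbours closer than 0.1 merged and a gain from 0.15.

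Within samples that held 3 or more cells of each class, class means were compared by exact two-sided sign-flip permutation tests, and single bins by limma (lmFit, eBayes) with the sample as block, Benjamini-Hochberg over 4376 bins at 5%. The limma and segment steps were tested on simulated data. Named genes are, per chromosome, the 10 of the listed genes with the largest CTC minus WBC difference and the 2 nearest 0, of which some are not reported here. Values had been seen when the lower-core subset and the other genes in the text were picked. The members, segments and lists were chosen with earlier results of these data known. Alternatives changed the pseudocount, the bin and cell filters, the score and carrier limits, the map settings, the block and the samples left in. Tests used limma 3.58.1 in R 4.3.3, and the rest Python 3.11.15 with pandas 2.3.3, numpy 2.4.6 and matplotlib 3.10.9.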

Additional observations from a re-analysis of the deposited data

Results flagged for a closer look

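In 41 sets of sample values checked, 2 held a sample that lay far from the others, where chance gives about 1 in 20. The CTC minus WBC difference of chromosome 11 block 2 was 0.387 log2 in C1N and 0.247 to 0.278 in the other 4 samples. The tumor-genome DP minus CTC difference of chromosome 11 block 3 was −0.111 in C1L, which held 3 CTC, and −0.026 to −0.0024 in the other 4.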

How the results depend on the processing

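Of 240 alternative values for 21 results, 227 kept their direction and side of the threshold and counts within 1.5 times. With classes of at least 1 cell a sixth sample entered, and DP minus WBC on chromosome 11 became 0.154 log2 and the carrier share 46.0 points, each with an exact permutation p of 0.03125, while lung minus blood on chromosome 11 turned to −0.0033 over 3 samples. The count of bins called in tumor-genome DP minus CTC, 146, was 282 with all bins kept, 4 with a score above 0.75, 55 without the lower-core cells (chosen after seeing the data) and 67 to 158 with 1 sample left out. Without the replicate block it was 0 (219 bins at an unadjusted p under 0.05), and CTC minus WBC and DP minus WBC gave 2108 and 1695 calls. DP minus WBC called 978 to 1760 bins with 1 sample left out, and 105 to 189 of the gained bins, with 982 and 110 without C1L and 978 and 105 without C2R. The number of gained segments was 9 with a limit of 0.1, 8 with 0.2, 9 with at least 5 bins, 7 with at least 20, 8 with all bins kept (and 1 lower) and 8 in a map from CTC minus WBC. The cause of these shifts was not tested. With 5 samples no sign-flip p can pass 0.05, and the read depth behind each bin is unknown.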

Other observations

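Single runs of 15 bins stood far from their segment in a few tumor-genome cells. A blood DP cell of C3R was at 1.45 log2 over chr1:149005164-157531617, in a segment otherwise at −0.27 in that cell. A blood DP cell of C2R was at −1.11 over chr1:186947764-194797977, with the whole segment at −0.96 and the distal block at −0.33. A blood DP cell of C1R and another of C1L were low over the same bins, chr1:93761718-103995626, at −0.85 and −0.78. These cells were picked for their extreme values and have no replicate.

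Across bins of chromosome 11, CTC minus culture correlated with gene density at r = 0.44 and PltLike minus culture at r = 0.39, against 0.14 and 0.22 on chromosome 1, as a description over bins that share libraries.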
